A study of Arabidopsis thaliana with 10 samples.

Results

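The greening regulators described here are 8 nuclear genes chosen by name from the count table, namely *GLK1* and *GLK2*, *GNC* and *CGA1*, *GUN1*, *HY5*, *BBX16* and *BBX21*. They make up 8 of the 33602 loci counted. RNA was sequenced from whole 8-d-old Arabidopsis Col-0 seedlings grown in long days on medium with sucrose, in 10 libraries, 2 per group. Line *P1-12* carries a dexamethasone (Dex)-inducible dCas9-KRAB repressor together with a U6-26 promoter-driven guide RNA, *P1*, aimed at *MORF2*, a plastid RNA-editing factor. Line *KRAB* carries the Dex-inducible dCas9-KRAB alone, without the guide. The 3 groups of *P1-12* seedlings were on 0.1% DMSO, 0.025 μM Dex or 0.25 μM Dex, and the 2 groups of *KRAB* were on DMSO or 0.25 μM Dex. Each line was homozygous and descended from a single transformant, so that line and transformant cannot be told apart. The study's methods call both libraries of a group biological replicates without saying how their seedlings were kept separate, and p-values measure the spread between these libraries. For *CGA1* and *BBX16* the spread used was shared across genes and is not that of their own libraries.

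Seedlings green when light-stabilised transcription factors switch on the genes for chlorophyll synthesis and light harvesting. GLK1 and GLK2 bind and activate those genes, the GATA factors GNC and CGA1 promote chlorophyll accumulation and chloroplast number, and HY5, a bZIP factor that the COP1 ubiquitin ligase removes in darkness, acts widely in photomorphogenesis with B-box partners such as BBX21. GUN1 is a chloroplast pentatricopeptide repeat protein through which impaired plastids lower the expression of nuclear photosynthesis genes, a process known as retrograde signaling, and GLK1 and GLK2 are among the factors that respond to it.

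Read totals ran from 9139050 to 40544617 counts per library. Replicate 2 of *KRAB* (+DMSO) and replicate 1 of *KRAB* (+0.25 μM Dex), with 29749669 and 40544617 counts, were the deepest. Levels are given as CPM, the counts per 1000000 reads counted after TMM scaling for library composition, and comparisons between genes as RPKM, which further divides by the exonic length. *MORF2*, the targeted gene, stood at 113 and 118 CPM in *P1-12* (+DMSO), 109 and 106 CPM at the low dose of 0.025 μM Dex and 52.3 and 56.0 CPM at the high dose of 0.25 μM. In *KRAB* it stood at 124 and 118 CPM on DMSO and 116 and 123 CPM on 0.25 μM Dex. The high dose lowered *MORF2* 2.13-fold in *P1-12* (log2 fold change −1.09, SE 0.07, edgeR adjusted p = 2.04e-08), whereas the low-dose difference of −0.10 did not pass the test (edgeR adjusted p = 0.469).

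The genes lie apart from one another and none overlaps another annotated locus in TAIR10.1. *GLK1* (AT2G20570) is on chromosome 2, plus strand, at 8855302 to 8857758, and *GLK2* (AT5G44190) on chromosome 5, plus strand, at 17798262 to 17800926. *GNC* (AT5G56860) is on chromosome 5, minus strand, at 22989216 to 22991530, and *CGA1* (AT4G26150) on chromosome 4, plus strand, at 13253084 to 13255106. *GUN1* (AT2G31400) is on chromosome 2, minus strand, at 13386954 to 13390854, and *HY5* (AT5G11260) on chromosome 5, minus strand, at 3593335 to 3595073. *BBX16* (AT1G73870) and *BBX21* (AT1G75540) are both on chromosome 1, plus strand, at 27778984 to 27780809 and at 28365824 to 28367738.

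Because several of these genes moved together, the 250 bases before the annotated start of each were searched, on both strands, for the G-box CACGTG, for CCAATC, for the I-box GATAAG and for ACGT, the core shared by bZIP-type elements and contained in the G-box. These are letters that light-regulated promoters often carry, and a match is a description of the sequence only. No window of the 8 held a G-box, which 6.49% of 27443 windows of the same length in the genome did, and none held CCAATC, found in 10.2% of them. The I-box was in the *GLK1* window alone, 49 bases before the start, and in 12.3% of all windows. ACGT was in the windows of *GLK1*, *GNC*, *HY5* and *BBX16*, the last with 2 matches, at 145, 26, 8, 101 and 22 bases before the start, and in 44.1% of all windows. The windows of 4 genes that fell and of *BBX21*, which rose, are shown to compare genes that moved together with one that moved the other way. They come from the RefSeq TAIR10.1 genome and read 5′ to 3′ on the strand of the gene, with the I-box and ACGT in capitals. The *GLK1* window is chr2:8855052-8855301 on the plus strand, *GLK2* chr5:17798012-17798261 on the plus strand, *GNC* chr5:22991531-22991780 on the minus strand, *BBX16* chr1:27778734-27778983 on the plus strand and *BBX21* chr1:28365574-28365823 on the plus strand.
GLK1: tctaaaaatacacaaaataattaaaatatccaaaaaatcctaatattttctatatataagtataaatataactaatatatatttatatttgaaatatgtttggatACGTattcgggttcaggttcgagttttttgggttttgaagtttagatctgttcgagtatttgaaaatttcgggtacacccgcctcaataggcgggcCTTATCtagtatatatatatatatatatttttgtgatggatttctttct
GLK2: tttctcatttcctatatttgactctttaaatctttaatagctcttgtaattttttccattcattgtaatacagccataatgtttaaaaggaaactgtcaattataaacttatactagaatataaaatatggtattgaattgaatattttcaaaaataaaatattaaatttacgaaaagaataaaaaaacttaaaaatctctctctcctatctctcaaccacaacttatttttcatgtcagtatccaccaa
GNC: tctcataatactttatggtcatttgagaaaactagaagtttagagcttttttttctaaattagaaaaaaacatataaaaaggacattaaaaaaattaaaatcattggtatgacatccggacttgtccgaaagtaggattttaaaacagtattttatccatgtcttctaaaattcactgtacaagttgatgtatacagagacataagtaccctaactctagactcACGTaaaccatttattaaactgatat
BBX16: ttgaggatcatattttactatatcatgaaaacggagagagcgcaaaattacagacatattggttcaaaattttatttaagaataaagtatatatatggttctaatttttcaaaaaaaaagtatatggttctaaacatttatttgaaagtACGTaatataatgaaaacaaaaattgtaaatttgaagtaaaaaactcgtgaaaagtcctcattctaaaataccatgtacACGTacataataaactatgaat
BBX21: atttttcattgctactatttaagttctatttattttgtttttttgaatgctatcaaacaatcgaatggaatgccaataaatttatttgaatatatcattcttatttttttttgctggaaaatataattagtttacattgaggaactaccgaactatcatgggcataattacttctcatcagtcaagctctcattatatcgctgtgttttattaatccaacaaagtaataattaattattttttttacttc
No match to these 4 motifs was shared by the 4 genes shown that fell, and *GLK2* and *BBX21* had none.

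At the high dose in *P1-12*, *GLK1*, *GLK2*, *GNC*, *CGA1* and *BBX16* fell, *BBX21* and *HY5* rose, and *GUN1* did not pass the test. The largest fall was that of *BBX16*, 8.17-fold, and the rise of *BBX21* was 2.00-fold. Of the 8 genes, 6 passed the study's filter of a CPM above 2 in at least 9 libraries. Among these 6, 3 were lower and 2 higher, where 29.2% of all 16721 genes tested were lower and 28.3% higher at an adjusted p under 0.05. *CGA1* and *BBX16* passed a CPM of 2 in every library but those of the high dose, so they fell below the filter because they were low there. They were read from a fit of all 24782 genes with a count, in which 23.2% of genes were lower, and both were. Against shares this large these counts do not set the 8 genes apart, and what follows rests on each gene's own values. Scaling by library totals alone moved the median gene to 0.11 on the log2 scale and the higher share of all calls from 49.2% to 60.4%. All 8 genes kept their direction and call. *GUN1* was called under neither scaling, and its values on library totals overlapped between DMSO and the high dose. In whole seedlings, fewer cells of a type and less RNA per cell cannot be told apart.

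**Figure D1:**
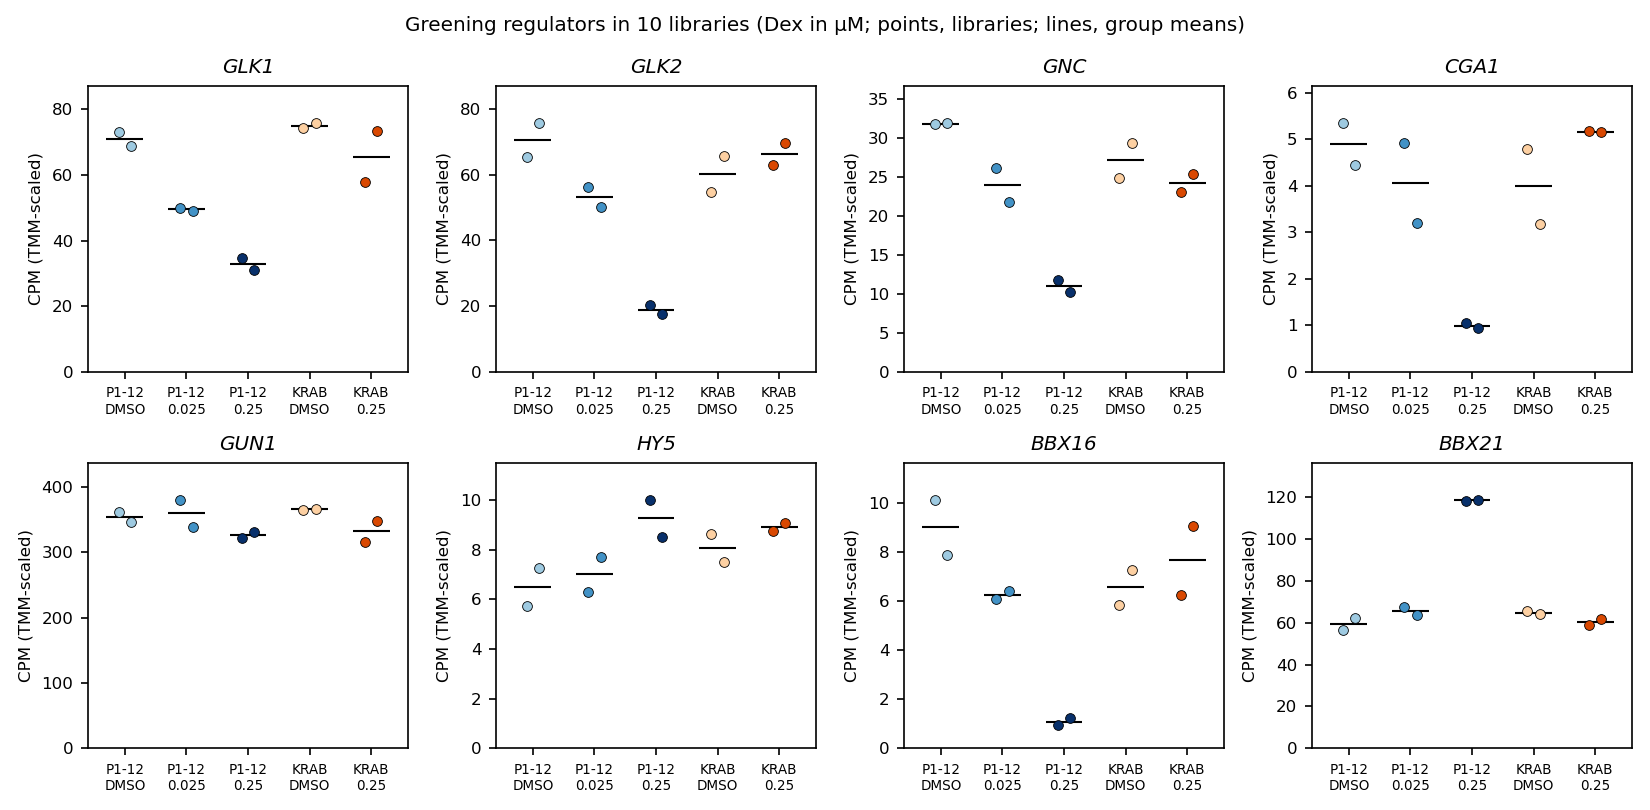
TMM-scaled CPM (vertical axis, from 0, a separate scale for each gene) of the 8 greening regulators by line and Dex dose, with a point for each of the 10 libraries and a line at the mean of each group of 2. The *P1-12* (+0.25 μM Dex) libraries sit lowest for *GLK1*, *GLK2*, *GNC*, *CGA1* and *BBX16* and highest for *BBX21*, while those of *GUN1* lie among the *KRAB* values.

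The GLK factors were measured at similar levels in untreated seedlings and were lowered to different extents. *GLK1* stood at 73.0 and 68.8 CPM in *P1-12* (+DMSO), 50.0 and 49.1 CPM at the low dose and 34.6 and 31.0 CPM at the high dose. In *KRAB* it stood at 74.1 and 75.7 CPM on DMSO and at 57.8 and 73.4 CPM on 0.25 μM Dex. The 3 *P1-12* groups thus did not overlap and descended with dose, and 1 *KRAB* library on Dex lay below the other 3. At the high dose *GLK1* was 2.16-fold lower than in *P1-12* (+DMSO) (log2 fold change −1.11, SE 0.11, edgeR adjusted p = 7.52e-07). *GLK2* stood at 65.5 and 75.7 CPM in *P1-12* (+DMSO), 56.4 and 50.1 CPM at the low dose and 20.2 and 17.6 CPM at the high dose. In *KRAB* it stood at 54.9 and 65.6 CPM on DMSO and 63.1 and 69.7 CPM on Dex. The high-dose libraries of *GLK2* lay far below the other 8, whose values overlapped from group to group when both lines were ordered by mean. Within *P1-12* its 3 groups descended with dose without overlap, as those of *GLK1* did. The high dose lowered *GLK2* 3.74-fold (log2 fold change −1.90, SE 0.12, edgeR adjusted p = 1.07e-08).

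Since both GLK genes were measured in each library, their length-scaled ratio was taken within libraries. *GLK2* had 0.583 and 0.568 of the RPKM of *GLK1* in the *P1-12* (+0.25 μM Dex) libraries and between 0.740 and 1.13 of it in the other 8. The high-dose libraries were thus below all others for this ratio. No test of this ratio was run. For the high dose against *P1-12* (+DMSO), 2 libraries against 2, an exact two-sided permutation test cannot give a p below 0.333. The RPKM ratio of *CGA1* to *GNC* was 0.0979 and 0.101 at the high dose, from 10 *CGA1* counts in each of those libraries, and between 0.119 and 0.245 in the other 8.

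**Figure D2:**
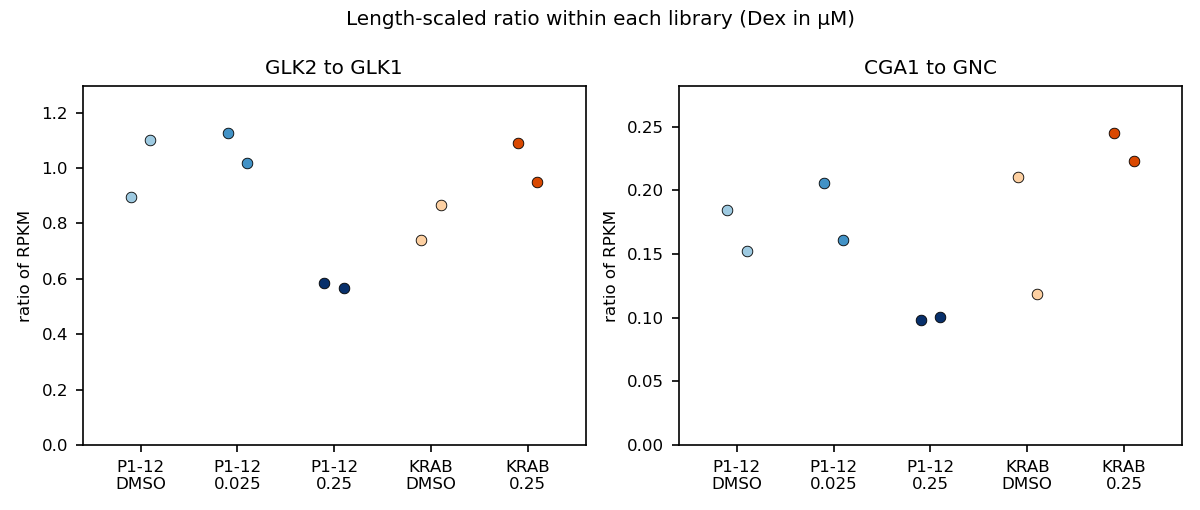
Ratio of RPKM within each library (vertical axes, from 0), for *GLK2* to *GLK1* (left) and *CGA1* to *GNC* (right), by line and Dex dose, with a point per library. The *P1-12* (+0.25 μM Dex) libraries lie lowest in both panels, at 0.583 and 0.568 on the left and 0.0979 and 0.101 on the right.

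The GATA factors fell at the high dose as well. *GNC* stood at 31.8 and 31.9 CPM in *P1-12* (+DMSO), 26.2 and 21.8 CPM at the low dose and 11.8 and 10.2 CPM at the high dose. *KRAB* libraries had 24.9 and 29.4 CPM on DMSO and 23.1 and 25.4 CPM on Dex. The low-dose range overlapped that of *KRAB* on Dex, and the high-dose libraries lay below all others. Within *P1-12* the groups descended with dose without overlap. *GNC* was 2.90-fold lower at the high dose (log2 fold change −1.54, SE 0.13, edgeR adjusted p = 1.89e-07). *CGA1*, its closest paralogue, was far less abundant, with 5.35 and 4.44 CPM in *P1-12* (+DMSO) and 4.92 and 3.21 CPM at the low dose. At the high dose it was counted 10 times in each library, which is 1.05 and 0.936 CPM, with a 95% Poisson interval of 4.80 to 18.4 on each count that covers counting error only. The *KRAB* libraries measured 4.79 and 3.19 CPM on DMSO and 5.17 and 5.16 CPM on Dex. The high-dose libraries alone stood apart, and the fall was 4.87-fold (log2 fold change −2.28, SE 0.33, edgeR adjusted p = 4.64e-11). With a filter of a CPM above 1 in at least 2 libraries, added after the data were seen, that edgeR adjusted p was 7.62e-05.

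Both B-box genes changed at the high dose, in opposite directions. *BBX16*, a CONSTANS-like B-box gene known as a direct target of GLK1, was counted 127 and 96 times in *P1-12* (+DMSO), 62 and 70 times at the low dose, and 9 and 13 times at the high dose. In CPM this was 10.1 and 7.90, then 6.10 and 6.42, then 0.947 and 1.22. *KRAB* libraries had 5.86 and 7.29 CPM on DMSO and 6.24 and 9.08 CPM on Dex. The high-dose libraries lay below all others, and the other groups overlapped when both lines were ordered by mean. Within *P1-12* the groups descended with dose without overlap. The difference from *P1-12* (+DMSO) was −3.03 on the log2 scale (SE 0.28, edgeR adjusted p = 7.47e-26), with 95% Poisson intervals on the high-dose counts of 4.12 to 17.1 and 6.92 to 22.2. Under the added filter its edgeR adjusted p was 1.72e-06. *BBX21*, which activates *HY5* and promotes photomorphogenesis, stood at 56.3 and 62.1 CPM in *P1-12* (+DMSO) and 67.5 and 64.0 CPM at the low dose. The high dose gave 118 and 119 CPM, above every other library, and the *P1-12* groups of *BBX21* rose with dose without overlap. Its *KRAB* values were 65.4 and 64.2 CPM on DMSO and 58.8 and 61.9 CPM on Dex. The rise over *P1-12* (+DMSO) was 1.00 on the log2 scale (SE 0.07, edgeR adjusted p = 4.01e-08).

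*HY5* was a low-count gene here. It stood at 5.75 and 7.24 CPM in *P1-12* (+DMSO), 6.30 and 7.70 CPM at the low dose and 10.001 and 8.51 CPM at the high dose, from 64 to 95 counts per *P1-12* library. The values in *KRAB* were 8.61 and 7.50 CPM on DMSO and 8.73 and 9.08 CPM on Dex. The high-dose values were above both other *P1-12* groups but overlapped those of *KRAB* on Dex. The 1.42-fold rise over *P1-12* (+DMSO) passed the threshold (log2 fold change 0.51, SE 0.18, edgeR adjusted p = 0.0245). It did not without replicate 1 of *P1-12* (+DMSO) (0.35, edgeR adjusted p = 0.188), without replicate 1 of the high dose (0.39, edgeR adjusted p = 0.153) or with the DESeq2 Wald test (0.52, adjusted p = 0.0686).

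*GUN1* was the most abundant of the 8 by length and varied least. It stood at 362 and 346 CPM in *P1-12* (+DMSO), 380 and 339 CPM at the low dose and 322 and 331 CPM at the high dose. Without the guide, in *KRAB*, it stood at 365 and 366 CPM on DMSO and 316 and 348 CPM on Dex. Neighbouring groups overlapped throughout when both lines were ordered by mean. By line, the high-dose libraries of *P1-12* lay below its DMSO and low-dose libraries, which overlapped. Likewise *KRAB* on Dex lay below *KRAB* on DMSO. Scaled by library totals alone, the high dose and DMSO overlapped in *P1-12*, as given above. The high-dose difference in *P1-12* was −0.12 on the log2 scale (95% confidence interval −0.28 to 0.0486, edgeR adjusted p = 0.212), and levels under 0.824 of the control lie outside that interval.

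By RPKM, the order of the genes in *P1-12* (+DMSO) was *GUN1* at 102 ± 3.38 (SD, n = 2), *GLK1* at 41.0 ± 1.74, *GLK2* at 40.8 ± 4.15, *BBX21* at 37.7 ± 2.59, *GNC* at 17.8 ± 0.0608, *BBX16* at 5.32 ± 0.933, *HY5* at 5.17 ± 0.840 and *CGA1* at 3.00 ± 0.392. The values of *GLK1* and *GLK2*, of *GLK2* and *BBX21*, and of *BBX16* and *HY5* overlapped between libraries. At the high dose *BBX21* at 75.4 ± 0.276 RPKM was second to *GUN1* at 94.2 ± 1.70. *GLK1* was then at 19.0 ± 1.496, *GLK2* at 10.9 ± 1.07, *HY5* at 7.37 ± 0.837, *GNC* at 6.14 ± 0.629, *BBX16* at 0.638 ± 0.112 and *CGA1* at 0.609 ± 0.0507 RPKM. *HY5* had moved above both *GNC* and *BBX16* in this order, with *HY5* at 7.96 and 6.78 and *GNC* at 6.59 and 5.70 RPKM in the 2 libraries. The high-dose values of *BBX16* and *CGA1* overlapped between libraries.

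To ask which of these genes moved at the lower dose, *P1-12* (+0.025 μM Dex) was compared with the same DMSO libraries, which the high-dose comparison shares. *GLK1* fell by 0.52 (SE 0.10, edgeR adjusted p = 0.00689), *GLK2* by 0.41 (SE 0.11, edgeR adjusted p = 0.0316) and *GNC* by 0.41 (SE 0.12, edgeR adjusted p = 0.0437) on the log2 scale. These are 3 of the 6 genes that passed the filter, where 3.46% of all genes tested were lower. *BBX21* with a log2 fold change of 0.15, *HY5* with 0.11 and *GUN1* with 0.02 did not pass. Of the genes read without the filter, *BBX16* had a log2 fold change of −0.52 (edgeR adjusted p = 0.0815) and *CGA1* of −0.27 (edgeR adjusted p = 0.703), so neither was called, where 3.99% of genes were lower in that fit. *BBX16* was called at −0.69 (edgeR adjusted p = 0.0459) without replicate 2 of *P1-12* (+DMSO). *MORF2* itself was not called at this dose, as given above. The 3 calls rested on few libraries. All 3 were lost without replicate 2 of the low dose, when *GLK1* had −0.50 (edgeR adjusted p = 0.0889), *GLK2* −0.32 (edgeR adjusted p = 0.301) and *GNC* −0.28 (edgeR adjusted p = 0.386). *GLK1* and *GNC* were also lost without replicate 1 of *P1-12* (+DMSO) (−0.48 with edgeR adjusted p = 0.0614, and −0.42 with edgeR adjusted p = 0.159). *GLK2* was lost without replicate 2 of *P1-12* (+DMSO) (−0.31, edgeR adjusted p = 0.219) or replicate 1 of the low dose (−0.50, edgeR adjusted p = 0.0518). Without replicate 2 of *P1-12* (+DMSO) *GNC* was lost too (−0.42, edgeR adjusted p = 0.145), as it was in other settings given in the closing section.

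Between the doses, *P1-12* (+0.25 μM Dex) against *P1-12* (+0.025 μM Dex), *GLK1* fell by 0.60, *GLK2* by 1.497 and *GNC* by 1.13 on the log2 scale, and *BBX21* rose by 0.85, with edgeR adjusted p-values from 3.07e-07 to 0.000509. Of the 6 genes that passed the filter these are 3 lower and 1 higher, where 26.4% of genes were lower and 24.1% higher. In the fit without the filter, with 21.1% of genes lower, *BBX16* fell by 2.51 and *CGA1* by 2.02. *HY5* with a log2 difference of 0.40 (edgeR adjusted p = 0.0821) and *GUN1* with −0.14 (edgeR adjusted p = 0.150) did not pass. For *GLK1* the first step of −0.52 and the second of −0.60 were of similar size, while for *GLK2* the second step of −1.497 followed a first of −0.41. The low-dose libraries enter both steps, and the difference between the steps was not tested.

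**Figure D3:**
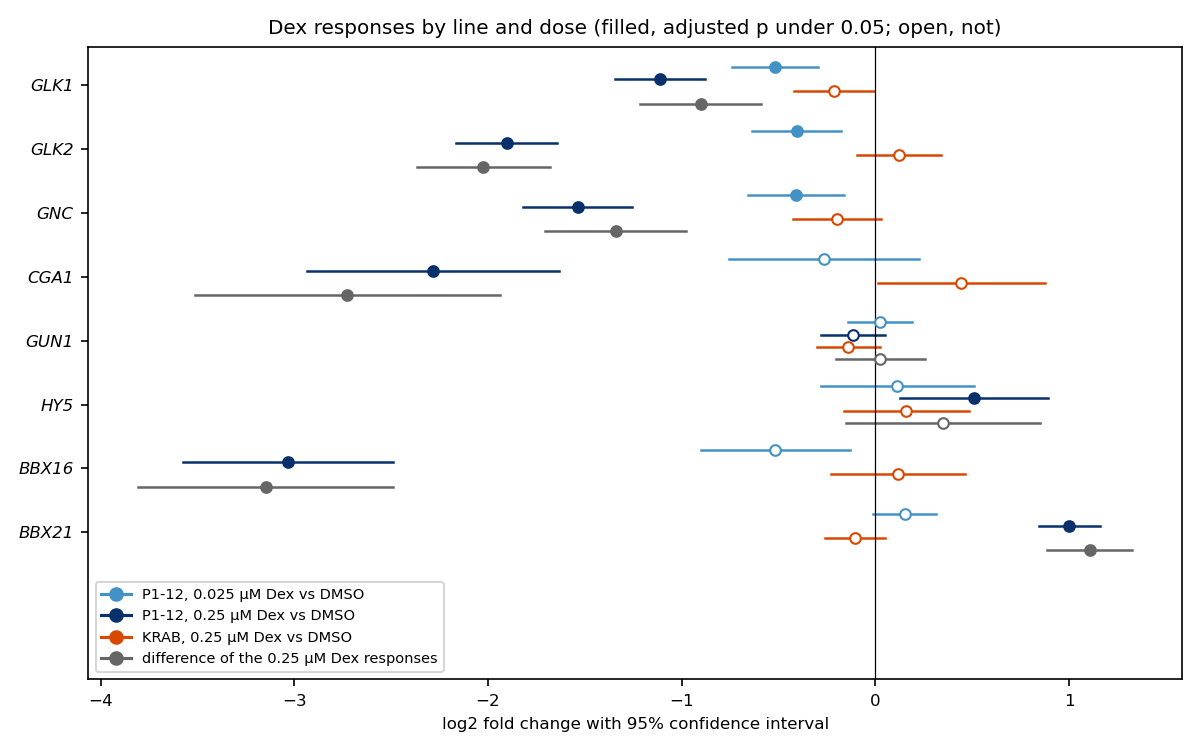
Log2 fold changes (horizontal axis) with 95% confidence intervals for the 8 genes in *P1-12* at each Dex dose, in *KRAB* at 0.25 μM Dex, and for the difference between the 0.25 μM Dex responses of the lines. Filled points have an adjusted p under 0.05, as *BBX16* at −3.03 and *BBX21* at 1.00 in *P1-12*, and all 8 *KRAB* points are open. Intervals of *CGA1* and *BBX16* use a spread shared across genes.

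Dex with dCas9-KRAB but no guide was tested in *KRAB*. None of the 8 genes passed the test there, where 2.87% of the genes tested and 5.72% of those in the fit without the filter were called. At an unadjusted p under 0.05 there were 2, *GLK1* with a log2 fold change of −0.21 (95% confidence interval −0.42 to −0.00487, edgeR adjusted p = 0.278) and *CGA1* with 0.44 (0.0131 to 0.87, edgeR adjusted p = 0.303). In the filtered fit, which holds *GLK1* but not *CGA1*, 2894 of all 16721 genes had such a p. Without replicate 2 of *KRAB* (+0.25 μM Dex), leaving the library with 57.8 CPM, *GLK1* was called at −0.38 (edgeR adjusted p = 0.0239). DESeq2 called 0 of the 8 genes. The values of the others were 0.12 for *GLK2* (−0.0971 to 0.34), −0.20 for *GNC* (−0.42 to 0.0304), −0.14 for *GUN1* (−0.30 to 0.0216), 0.16 for *HY5* (−0.16 to 0.48), 0.12 for *BBX16* (−0.23 to 0.46) and −0.11 for *BBX21* (−0.26 to 0.0474).

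The lines were next compared at equal treatment. On DMSO none of the 8 genes passed the test between *P1-12* and *KRAB* by edgeR, and DESeq2 called 0, where 0.0120% of the genes tested and 0.654% of those in the fit without the filter were called. *BBX16*, read from the fit without the filter, alone had an unadjusted p under 0.05, with 0.42 on the log2 scale. In the filtered fit, which does not hold *BBX16*, 880 of all 16721 genes had such a p. On 0.25 μM Dex, *P1-12* was lower than *KRAB* by 0.98 for *GLK1*, 1.81 for *GLK2* and 1.13 for *GNC*, and higher by 0.98 for *BBX21*, on the log2 scale. Of the 6 filtered genes 3 were lower and 1 higher, where 30.9% of genes were lower and 29.2% higher. *BBX16* had −2.73 and *CGA1* −2.36 in the fit without the filter, with 25.1% of its genes lower, and both were called. *HY5*, called against *P1-12* (+DMSO), had 0.06 here (95% confidence interval −0.28 to 0.40, edgeR adjusted p = 0.767), and *GUN1* had −0.02 (−0.19 to 0.14).

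The test of whether the 0.25 μM Dex response differed between the lines called 6 of the 8 genes. The response of *P1-12* was lower than that of *KRAB* by 0.90 for *GLK1* (SE 0.15, edgeR adjusted p = 0.000162), by 2.02 for *GLK2* (SE 0.16, edgeR adjusted p = 2.59e-07) and by 1.34 for *GNC* (SE 0.17, edgeR adjusted p = 2.04e-05) on the log2 scale. It was higher by 1.11 for *BBX21* (SE 0.10, edgeR adjusted p = 1.11e-06). Across all genes tested 25.1% had a lower and 22.9% a higher response in *P1-12*. *BBX16* had −3.15 and *CGA1* −2.73 in the fit without the filter, in which 20.1% of genes had a lower response. The differences of 0.35 for *HY5* (95% confidence interval −0.15 to 0.85, edgeR adjusted p = 0.235) and 0.03 for *GUN1* (−0.21 to 0.26, edgeR adjusted p = 0.864) did not pass.

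Other genes of the pathway were counted in *P1-12* (+0.25 μM Dex) against *P1-12* (+DMSO), beside a median log2 fold change over all genes of −0.00234 and shares of 29.2% of all genes lower and 28.3% higher, the background for the list counts that follow. Of 26 genes that GLK factors are known to act on, in chlorophyll synthesis and light harvesting, 25 passed the filter and all 25 fell, with a median of −1.55. *LHCB2.3* fell by 3.89 (SE 0.17) and *LHCB1.4* by 2.68 (SE 0.12), both light-harvesting chlorophyll-binding proteins of photosystem II, and *PORC*, a protochlorophyllide oxidoreductase, by 2.39 (SE 0.12). The LHCB1 and LHCB2 genes have near-identical copies, so reads may be divided among them. *LHCB2.3* stood at 848 and 783 CPM in *P1-12* (+DMSO), 512 and 362 CPM at the low dose and 57.5 and 52.7 CPM at the high dose. Its 3 groups did not overlap, as for *GLK1*, *GLK2*, *GNC* and *BBX16* in *P1-12*. The summed level of the 26 genes was 74530 to 74565 CPM in *P1-12* (+DMSO), 52829 to 60908 CPM at the low dose and 26939 to 28662 CPM at the high dose. At the low dose 19 of the 25 were lower, with a median of −0.40, where 3.46% of all genes tested were lower. That count was 6 without replicate 1 of *P1-12* (+DMSO), 8 without its replicate 2 and 4 without replicate 2 of the low dose. In *KRAB* the median was −0.17 and edgeR called 0 of the 25, where 2.87% of all genes were called. There 9 had an unadjusted p under 0.05, as did 2894 of all 16721 genes tested. DESeq2 and the edgeR exact test each called 1 of the 25, and the fit without the filter called 5.

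Of the 5 other genes whose loss gives a genomes-uncoupled phenotype or whose gain does, 3 fell and 1 rose, with a median of −0.72. *GUN4*, which activates magnesium chelatase, fell by 1.70 (SE 0.09) and *HY2*, which makes the phytochrome chromophore, by 0.86 (SE 0.12). *GUN4* and *CHLH* are also in the list of GLK targets. *HO1*, a heme oxygenase of the same pathway as *HY2*, named after its value was seen, had −0.02 (SE 0.07) and did not pass, as *GUN1* did not. Of 30 other B-box genes 20 were tested, of which 10 fell and 5 rose, and of the 10 below the filter 1 more fell in the fit without it. *BBX17*, of the same structural group as *BBX16*, fell by 2.59 (SE 0.17), *BBX27* by 1.33 (SE 0.19) and *BBX14* by 1.28 (SE 0.15). *BBX17* stood at 14.8 and 16.3 CPM in *P1-12* (+DMSO), 9.84 and 10.7 CPM at the low dose and 2.42 and 2.71 CPM at the high dose. Of 4 other B-class GATA genes tested 1 fell, *GATA17L*, by 0.75 (SE 0.12). The other 3 had log2 fold changes from −0.46 to −0.12. The count was 2 without replicate 1 of *P1-12* (+DMSO), without the filter or with only the groups compared.

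Upstream, 3 of 8 light receptor genes rose and 2 fell, with a median of 0.10. *PHYD* rose by 1.14 (SE 0.12) and *PHYA* by 0.97 (SE 0.08), both phytochromes, and *CRY2*, a blue light receptor, by 0.48 (SE 0.07). Of the 6 COP1, SPA and DET1 genes, which repress photomorphogenesis, 4 rose. *SPA3* rose by 0.70 (SE 0.13) and *SPA4* by 0.51 (SE 0.18), and the count was 2 without replicate 1 of *P1-12* (+DMSO). Of 6 PIF genes tested, bHLH factors that act against HY5 in many contexts and repress greening in darkness, 4 fell, with a median of −0.51. *PIF8* fell by 1.74 (SE 0.25) and *PIF4* by 1.19 (SE 0.12). Of 12 known HY5 targets 8 were tested, of which 3 rose and 1 fell, with a median of 0.11. *RUP1* rose by 1.39 (SE 0.24) and *RUP2* by 0.66 (SE 0.19), both repressors of UV-B signaling, and *FLS1*, a flavonol synthase, fell by 0.70 (SE 0.17). The count of 4 fell to 2 without replicate 1 of *P1-12* (+DMSO) or replicate 2 of the high dose. Of the 4 targets below the filter, 2 fell in the fit without it, where 23.2% of genes were lower, and they are named after their values were seen. *MYB111*, an activator of flavonol synthesis, was counted 28 and 26 times in *P1-12* (+DMSO), 12 and 9 times at the low dose and once in each library at the high dose. Its high-dose level was 0.0453 of the DMSO level, with a 95% interval of 0.00535 to 0.172 for counting error (log2 fold change −4.35, edgeR adjusted p = 4.72e-09). *ELIP2*, an early light-induced protein of the thylakoid, was counted 36 and 28 times in *P1-12* (+DMSO), 43 and 47 times at the low dose and 15 and 9 times at the high dose (log2 fold change −1.10, SE 0.39, edgeR adjusted p = 0.0110).

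**Figure D4:**
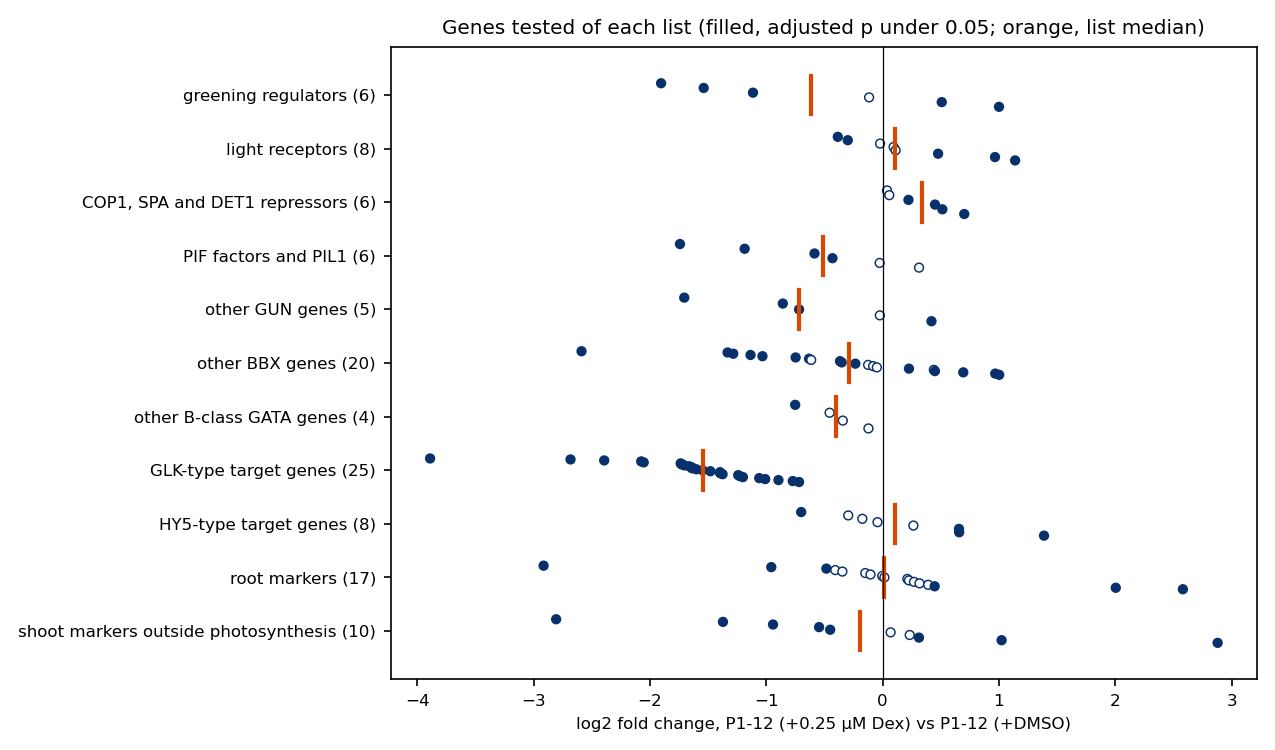
Log2 fold change in *P1-12* (+0.25 μM Dex) against *P1-12* (+DMSO) (horizontal axis) of each gene that passed the filter, by list, with the number tested in brackets. Filled points have an adjusted p under 0.05 and orange bars mark list medians. All 25 GLK-type targets lie left of 0, with a median of −1.55, and all 6 COP1, SPA and DET1 genes lie right of it.

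Root and shoot markers were read in the same libraries, since whole seedlings mix both organs. The 20 root markers summed to 198 to 207 CPM in *P1-12* (+DMSO), 217 to 223 CPM at the low dose and 263 to 324 CPM at the high dose. Of this, *IRT1* alone had 6.94 and 15.2 CPM, then 33.8 and 26.9 CPM, then 53.0 and 78.9 CPM. Single genes thus weigh heavily in such sums, which do not measure the share of an organ. In *KRAB* they summed to 190 to 199 CPM on DMSO and 258 to 263 CPM on Dex. There 3 of the 17 root markers tested rose and 0 fell, where 344 of all 16721 genes tested rose and 136 fell. They were led by *IRT1* with a log2 fold change of 2.73 (SE 0.46). In *P1-12* at the high dose 3 of the 17 root markers tested rose and 3 fell, and 1 of the 3 below the filter rose and 1 fell without it, led among those tested by *NRT2.1* with −2.91, *IRT1* with 2.58 and *TIP2;3* with 2.01. The 16 shoot markers outside photosynthesis summed to 202 to 218 CPM in *P1-12* (+DMSO) and 231 to 240 CPM at the high dose. Of this, *SPCH* alone had 7.66 and 6.25 CPM on DMSO and 49.3 and 53.3 CPM at the high dose. Of the 10 shoot markers tested 3 rose and 5 fell, and of the 6 below the filter 1 rose and 3 fell without it. The tested genes were led by the stomatal lineage genes *SPCH* with 2.88 and *FAMA* with −1.37 and the guard cell channel gene *KAT1* with −2.81. No root marker was at 0 in any group, and at most 1 shoot marker was. The part of these shifts in the changes of the 8 genes was not tested.

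The genes most like each changed regulator over the 10 libraries were found by the Pearson correlation of log2 CPM. It is given as a description, since libraries of 1 group share their treatment and the high-dose libraries stand apart for most of these genes. Before taking logs 0.5 was added to each count. For *CGA1* and *BBX16*, and for r among the 8 genes, 0.5 was added to the CPM instead, so those r values are not strictly comparable with the rest. For *GLK1* they were AT3G09800 (r = 0.990) and *WNK1* (r = 0.989), and 311 genes had an r above 0.95. For *GLK2* they were *ROPGEF14* and AT2G03750 (both r = 0.997), with 1416 genes above 0.95, and for *GNC* AT1G51110 (r = 0.996) and AT4G39970 (r = 0.995), with 1075. *BBX16* was followed most closely by AT1G17360 (r = 0.994) and AT3G23530 (r = 0.991), *CGA1* by AT5G10400 (r = 0.987) and *scpl29* (r = 0.982), and *BBX21* by AT5G57710 and AT4G14990 (r = 0.995 and 0.993). *HY5* had no gene above 0.95, and AT3G01490 (r = 0.917) and AT5G04920 (r = 0.898) came closest. Among the 8 genes themselves, r was 0.974 for *GLK2* with *GNC* and also for *GLK2* with *BBX16*, 0.917 for *GLK1* with *GLK2* and −0.981 for *BBX16* with *BBX21*, while for *GUN1* it ran from −0.666 with *HY5* to 0.607 with *GNC*.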

How the data were processed

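RNA-seq of the 10 libraries was aligned to TAIR10. The authors trimmed reads with Trimmomatic, aligned them with TopHat2 and counted them per locus with HTSeq. The deposited values are raw counts, whole numbers without normalization. Neither tool versions nor strandedness are given in the sources used here. Doses follow the treatment label, since the growth description names the same dose in both places.

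Fits used edgeR 4.0.16 in R 4.3.3 with TMM scaling, a means model of all 5 groups and the quasi-likelihood test, over the 16721 genes whose CPM exceeded 2 in 9 or more libraries. A gene was called at a Benjamini-Hochberg adjusted p under 0.05 over all genes tested. CGA1 and BBX16, below the filter, were read from a fit of 24782 genes. There, the spread was shared across genes, so standard errors, intervals and p-values do not measure the spread of a gene's own libraries. A gene whose fitted spread falls below counting error has its p bounded by a Poisson test. That p may exceed what its interval implies, as for BBX16 in KRAB, whose adjusted p is 1. The biological coefficient of variation was 0.0654. The filtered fit was tested on simulated data with known folds, for the high-dose comparison only and with the same spread for every gene. That test does not cover spread that differs by gene, or the fit without the filter. Strand-blind counting cannot separate antisense reads.

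The 8 genes and all lists were chosen with earlier results of these data known. Genes chosen after their values were seen are so marked. Named genes were otherwise the 8, MORF2, the 3 largest changes among called genes of each list (2 for lists under 8 genes), and the 2 genes most correlated with each called regulator. Alternatives were DESeq2 1.42.0, the edgeR exact test, no filter, library totals, RLE scaling, a replicate block, only the groups compared, each library left out, and a filter added later, CPM over 1 in 2 or more libraries. Symbols, positions and sequences come from RefSeq TAIR10.1, which matched 32835 of 33602 loci.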

Additional observations from a re-analysis of the deposited data

Results flagged for a closer look

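The 0.25 μM Dex response of P1-12 differed from that of KRAB, by edgeR's test of the difference itself, for 6 of the 8 genes. Of all genes tested, 25.1% had a lower and 22.9% a higher response in P1-12, so this count does not set the 8 genes apart. CGA1 and BBX16 were read from the fit without the filter, in which 20.1% of genes had a lower response. In log2 units the response of P1-12 minus that of KRAB was −0.90 for GLK1, −2.02 for GLK2, −1.34 for GNC, −2.73 for CGA1, −3.15 for BBX16 and 1.11 for BBX21. Within KRAB none of these 6 was called by edgeR or by DESeq2. GLK1 and CGA1 had an unadjusted p under 0.05 there, as had 2894 of all 16721 genes in the filtered fit, which does not hold CGA1.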

How the results depend on the processing

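Counts of the 8 genes changed stayed within 1.5 times of those reported in 122 of 125 alternatives, and the 3 others left out 1 library. For P1-12 (+0.025 μM Dex) against P1-12 (+DMSO) the leave-one-out counts ran from 0 to 3, and for KRAB (+0.25 μM Dex) against KRAB (+DMSO) from 0 to 1, reaching 1 without replicate 2 of KRAB (+0.25 μM Dex). The low-dose call of GNC was also lost with library totals only (−0.37), the DESeq2 Wald test (−0.42) or without either high-dose library (−0.41), beside the libraries named in the report. Calls of HY5 are given in the report. With library totals only, HY5 was called between the doses (0.47).

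Differences near 0 that were not called changed sign. Leaving out 1 library, at the low dose against DMSO, gave −0.60 to 0.016 for CGA1, −0.066 to 0.10 for GUN1 and −0.055 to 0.28 for HY5. In KRAB it gave −7.30e-05 to 0.26 for GLK2, −0.11 to 0.43 for BBX16 and −0.066 to 0.027 for MORF2. Between the lines on Dex it gave −0.086 to 0.049 for GUN1 and −0.057 to 0.17 for HY5, and for the difference of responses −0.043 to 0.096 for GUN1. With library totals only, MORF2 in KRAB had 0.026 and GUN1 between the lines on Dex 0.049. The cause was not tested.

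Over all genes, without the filter 2221 rather than 1340 changed at the low dose, 1417 rather than 480 in KRAB and 162 rather than 2 between the lines on DMSO, with 24782 genes tested. KRAB calls numbered 177 with only the groups compared and 785 with the edgeR exact test. Between the lines on DMSO there were 37 with the exact test, 14 with DESeq2 and 4 with the added filter. Without 1 library, low-dose calls fell as far as 416 and KRAB calls as far as 102. Higher calls made up 67.4% rather than 56.8% at the low dose, and 83.3% rather than 71.7% in KRAB, with library totals only.

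Replicate numbers did not pair the libraries, with correlations of deviations from −0.125 to 0.070. A fit with the replicate number as a block called 7 of the 8 genes at the high dose and 2 rather than 3 at the low dose, losing GNC (−0.41, edgeR adjusted p = 0.0614). The exact test has no form for the difference of responses. With 2 libraries per group, leaving one out leaves a lone library assumed to vary like the other groups. Depth limits CGA1, BBX16 and HY5 most.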
